A study of Homo sapiens with 3 samples.

Results

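The genes described here are 8 host genes of small nucleolar RNAs (snoRNAs), GAS5, SNHG1, SNHG3, SNHG5, SNHG7, SNHG8, SNHG12 and SNHG15, and 2 abundant nuclear noncoding RNAs, MALAT1 and NEAT1. They were measured in A549, a long-established cell line from a human lung adenocarcinoma, after 48 h with 0.1% DMSO as the vehicle control, with 60 μg/mL cordycepin or with 100 μg/mL cordyceps. Cordycepin is an analog of adenosine that lacks the hydroxyl group at the 3′ position of the sugar. Cordyceps is named in the labels alone, with no account of its preparation. All cultures grew in a serum-containing medium that, per the labels, also held nicotinamide, troglitazone and zinc sulfate. RNA from each condition was labeled with Cy3 and hybridized to 1 Agilent array, so that n = 1 per condition. Every difference below therefore lies between 2 single arrays and carries neither an error over cultures nor a p-value. Both comparisons use the same control array, and the doses of cordycepin and cordyceps differ, so their values are set side by side and not tested against each other. In bulk RNA, less of a transcript per cell and fewer cells that hold it cannot be told apart.

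A member probe was any probe other than a control whose RefSeq accession belongs to 1 of these genes. Probes were matched to the genes by accession alone. This gave 27 probes of 10 genes, among 58191 probes and 22435 named genes with a value. SNHG3, SNHG8 and SNHG12 had 1 probe each, and the other genes had between 2 and 6. All 27 probes were well above background on all 3 arrays, none was saturated, and each was printed once.

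Noncoding snoRNA host genes are transcribed as spliced RNAs whose introns are trimmed into snoRNAs, the guides for chemical modification of ribosomal RNA. The spliced exons of many of them are short-lived RNAs that are bound by ribosomes and removed by nonsense-mediated decay, and many of these genes start at an oligopyrimidine tract like that of ribosomal protein genes. GAS5 was first described as a transcript that builds up in growth-arrested cells. MALAT1 lies in nuclear speckles, which store splicing factors. NEAT1 is the scaffold of paraspeckles, nuclear bodies that form around it. NEAT1 and MALAT1 are near neighbors on chromosome 11.

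The sequences around the annotated starts are shown for the 7 host genes found in the RefSeq promoter table (build GRCh38.p14), because such genes are known for oligopyrimidine starts and the choice of members did not use their sequence. Each line gives 20 bases before the start and 40 bases from it, on the strand of the gene. Capitals mark the longest unbroken run of C and T in the window, and in SNHG1 both runs of that length.
SNHG1 (chr11:62855846-62855905, minus strand): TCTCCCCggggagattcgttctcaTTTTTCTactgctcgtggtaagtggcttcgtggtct
SNHG12 (chr1:28581834-28581893, minus strand): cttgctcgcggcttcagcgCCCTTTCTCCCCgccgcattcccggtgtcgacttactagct
SNHG8 (chr4:118278742-118278801, plus strand): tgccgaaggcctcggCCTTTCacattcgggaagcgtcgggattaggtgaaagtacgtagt
GAS5 (chr1:173869006-173869065, minus strand): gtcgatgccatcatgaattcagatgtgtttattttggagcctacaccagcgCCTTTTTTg
SNHG7 (chr9:136728145-136728204, minus strand): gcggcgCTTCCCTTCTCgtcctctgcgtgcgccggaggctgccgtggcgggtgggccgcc
SNHG5 (chr6:85678694-85678753, minus strand): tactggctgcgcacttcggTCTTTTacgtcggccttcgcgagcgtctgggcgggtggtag
SNHG3 (chr1:28505923-28505982, plus strand): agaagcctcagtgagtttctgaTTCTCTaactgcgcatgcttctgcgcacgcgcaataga

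The run of SNHG12 was 12 bases long and began 1 base before the annotated start, and that of SNHG7 was 11 bases long and ended 4 bases before it. Runs of those lengths or more were found in 5.21% and 7.4% of the same windows of all 35116 promoters in the table. The run of GAS5, 8 bases, lay 32 bases into the transcript, and runs as long were found in 22.5% of all promoters. SNHG1 held 2 runs of 7 bases, a length reached by 32.9% of all promoters. The first ended 14 bases before the start and the second began at base 5 of the transcript. SNHG3, SNHG5 and SNHG8 held 6 each, a length reached by 48.5% of all promoters. The median over the 7 host genes was 7 bases, compared with 5 over all promoters. A run of these letters is a description of the annotated window alone. SNHG15 and NEAT1 were not matched in the table, and MALAT1 is not shown.

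Signals are given as the intensity of the spot after the scanner software subtracted the background. Ratios were taken after the log2 signal was reduced by the 75th percentile of all probes of the array, which stood at a signal of 260.1, 224.3 and 260.2 on the control, cordycepin and cordyceps arrays. A probe was called at a 2-fold difference, a log2 ratio of 1. With no replicates, the spread came from technical sources. The scanner software's own error gave a standard error between 0.204 and 0.229 for the log2 ratio of a member probe. Different probes of 1 gene varied more, with an SD of the ratio of 1 probe, in log2 units, of 0.348 for cordycepin and 0.341 for cordyceps over 3356 genes. Among the 7 members with several probes the SD within a gene was 0.17 and 0.23. Other measures over many genes were narrower. From the interquartile range the SD was 0.255 for cordycepin and 0.204 for cordyceps, and outside the corner the SD for cordyceps was 0.285. Below, a difference under about 0.35 is called within the spread between probes. Some such differences, as in SNHG5 and NEAT1 with cordyceps, exceed the narrower measures. The spread between cultures is not known.

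Some facts of the arrays bear on all values. The scaling sets where 0 lies, since the median log2 ratio of all probes measured on both arrays was -0.03 for cordycepin and -0.12 for cordyceps, and -0.29 and 0.15 when arrays were scaled on the median. The cordyceps array detected fewer probes, 42.1% of them, compared with 49.0% and 47.5% on the arrays of control and cordycepin. It also had a corner, rows from 241 and columns from 83, where 11.2% of spots had an outlying local background, compared with 0 on the other arrays. Of the member probes, 7 lie there and are marked in the figures: the only probe of SNHG3, 1 of GAS5, 1 of SNHG1, 2 of SNHG5 and 2 of SNHG15. All 6 epithelial markers checked, KRT7, KRT8, KRT18, KRT19, CDH1 and EPCAM, were well above background on all 3 arrays, although EPCAM was 2.85-fold lower with cordycepin and KRT19 2.37-fold lower with cordyceps. Among markers of other cell types, CD3E, PECAM1, COL3A1 and PDGFRB were not well above background on any array, VWF and CDH5 were detected in control cells and with cordycepin alone, and PTPRC, COL1A1 and CD79A were detected on all 3, with control signals of 99.5, 337 and 4090.0. Their part in the results was not tested.

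With cordyceps, 5 of the 8 snoRNA host genes stood above control by more than the spread between probes, by their brightest probes. SNHG5 (0.32), SNHG7 (0.30), MALAT1 (0.19) and NEAT1 (0.16) were above control by less than that spread. By the brightest probe of each gene, 7 of the 8 host genes were higher than control, with a median log2 ratio of 0.67, and SNHG3 was lower at -0.45. The median over all named genes was -0.12. SNHG15 and SNHG1 were at least 2-fold higher, and SNHG12, SNHG8 and GAS5 were 1.93-fold, 1.63-fold and 1.55-fold higher. Of the 27 member probes, 5 passed 2-fold upward, 2 of SNHG1 and 3 of SNHG15, and 0 downward. Counted by genes, 2 of 10 passed it upward and 0 downward, compared with 4.39% and 3.3% of named genes. Over all probes detected on at least 1 of both arrays, 5.67% passed it upward and 3.49% downward. Among all probes with a mean scaled signal of at least 1000 these shares were 1.58% and 2.12%. Of the member probes, 24 reached that signal, 3 of them called higher, and the other 2 calls were among the 3 dimmer member probes. That mean was taken over all 3 arrays, so a probe can reach it through its cordyceps signal. Of the 3 called probes, 1 of SNHG15 did so, with 751 in control cells, 589 with cordycepin and 2630.1 with cordyceps.

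With cordycepin, SNHG7 and SNHG5 were lower than control, MALAT1 and SNHG12 were higher, and the other genes differed by less than the spread between probes by their brightest probes. SNHG5 (-0.36), MALAT1 (0.35) and SNHG12 (0.36) passed that spread only narrowly, and 0 of the 10 genes passed 2 spreads. This sorting depended on the scaling, since median scaling gave SNHG12 0.10 and SNHG8 -0.57. The 8 host genes had a median log2 ratio of 0.01 by their brightest probes, from -0.47 to 0.36. The median of all named genes was -0.05. Of the 27 member probes, 0 passed 2-fold upward and 1, a probe of SNHG7, downward. Over all probes, 7.21% passed it upward and 3.69% downward, and among probes with a mean scaled signal of at least 1000, 1.36% and 1.98%. The SNHG7 probe is dimmer than that, and 0 of the 24 brighter member probes were called. The share of member probes called lower, 1 of 27, was near that of all probes.

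**Figure D1:**
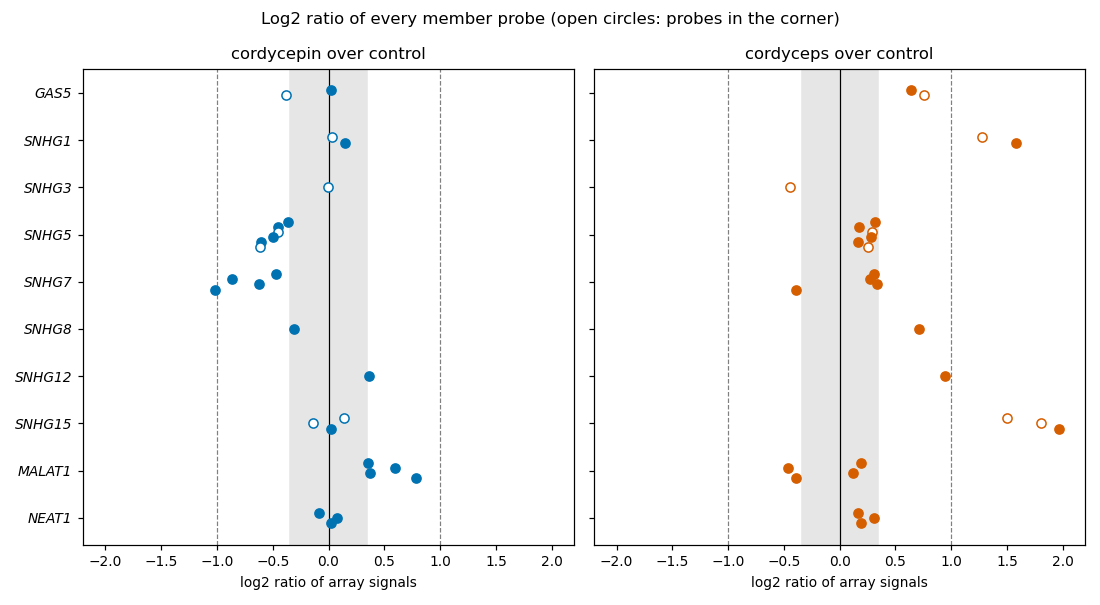
Log2 ratio of every member probe, cordycepin over control on the left and cordyceps over control on the right, with 1 row per gene. Filled circles are probes outside the corner and open circles probes in it. The gray band is the SD between probes of 1 gene (0.348 and 0.341), and dashed lines mark 2-fold. The probes of SNHG1 and SNHG15 lie beyond 2-fold with cordyceps, and those of SNHG5 and SNHG7 lie left of 0 with cordycepin.

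SNHG15, which hosts 1 snoRNA gene, had the largest ratio of the members with cordyceps. The brightest of its probes had a signal of 1599 in control cells, 1518 with cordycepin and 4536 with cordyceps. The other probes gave 751, 589 and 2630.1, and 117, 102 and 457, in the same order of arrays. All 3 probes thus stood highest with cordyceps, by 2.84-fold, 3.50-fold and 3.91-fold. The probe with the largest ratio lies outside the corner and the other 2 lie in it. With cordycepin the 3 log2 ratios were 0.14, -0.14 and 0.02, which are all within the spread between probes.

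SNHG1 hosts 9 snoRNA genes, the largest number of the members after GAS5. Its brightest probe gave 7990.0 in control cells, 7046 with cordycepin and 19314 with cordyceps, and the other probe gave 360.4, 345 and 1075. Both stood highest with cordyceps, 2.42-fold and 2.98-fold above control. The brightest probe lies in the corner and the other does not, and the probe outside it gave the larger ratio. The log2 ratios with cordycepin were 0.03 and 0.15, within the spread. For SNHG1 and SNHG15, all 5 probes were at least 2-fold higher with cordyceps in each of the 12 ways of processing that were run. Of these, 1 was the main way, and 1 left out the corner and so kept only 1 probe of each gene. The detection rules could not move a member ratio, since all member probes were well above background. The 12 ways are therefore not independent checks, here and for the genes below.

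SNHG12 hosts 4 snoRNA genes. Its only probe, outside the corner, gave 5326 in control cells, 5901 with cordycepin and 10273 with cordyceps. The ratio to control was 1.93-fold with cordyceps, a log2 ratio of 0.95, just short of the call, and 1.29-fold with cordycepin. It passed 2-fold in 4 of the 12 ways of processing, with log2 ratios between 0.92 and 1.22. With cordycepin it was above control in all 12, between 0.10 and 0.46.

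SNHG8 and GAS5 followed with smaller differences. The only probe of SNHG8 gave 34683 in control cells, 24175 with cordycepin and 56656 with cordyceps. It stood 1.63-fold above control with cordyceps and, with a log2 ratio of -0.31, within the spread below control with cordycepin. Under median scaling the log2 ratio of SNHG8 with cordycepin was -0.57, beyond the spread. GAS5, host of 11 snoRNA genes, had signals of 80897, 70667 and 125749 by its brightest probe and 15696, 10368 and 26516 by the other. Both GAS5 probes were highest with cordyceps, by 1.55-fold outside the corner and 1.69-fold inside it. With cordycepin they differed, with log2 ratios of 0.02 and -0.38, so no direction is given for GAS5 there. Both SNHG8 and GAS5 stayed above control with cordyceps in all 12 ways of processing.

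SNHG5 was the most densely measured member, with 6 probes of 1 accession whose control signals ran from 11207 to 103561. Its brightest probe gave 103561 in control cells, 69488 with cordycepin and 129312 with cordyceps. All 6 probes had the same order of arrays, lowest with cordycepin and highest with cordyceps. With cordycepin the log2 ratios ran from -0.61 to -0.36, each beyond the spread of a single probe, the smallest only narrowly. All 6 were below 0 in all 12 ways of processing. With cordyceps they ran from 0.17 to 0.32, which is within that spread. The probes in the corner, at 0.25 and 0.29, fell within the range of the 4 others.

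SNHG7 showed the lowest values with cordycepin. Its probes carry 3 accessions, NR_024542, NR_024543 and NR_003672, which stand for different transcripts of the gene, and none lies in the corner. The brightest probe, for NR_024542, gave 46787 in control cells, 29151 with cordycepin and 57777 with cordyceps. The probe for NR_024543 gave 12736, 6019 and 15367, and the dimmest, for NR_003672, gave 429, 183 and 327. All 4 probes were lowest with cordycepin, by 1.38-fold and 1.54-fold for NR_024542, 1.82-fold for NR_024543 and 2.02-fold for NR_003672. With cordyceps the 3 probes of NR_024542 and NR_024543 had log2 ratios between 0.27 and 0.33 and that of NR_003672 had -0.39, which was -0.12 under median scaling and -0.28 with the corner left out, both within the spread. Whether each probe reads its own transcript alone was not tested. The call of the NR_003672 probe with cordycepin lay at a log2 ratio of -1.01 and was lost under 3 of the other scalings and background corrections.

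SNHG3, whose span overlaps that of RCC1, was the only host gene whose brightest probe lay below control with cordyceps. Its only probe, in the corner, gave 11872 in control cells, 10195 with cordycepin and 8715 with cordyceps. The log2 ratio with cordyceps was -0.45, beyond the spread between probes, and there is no probe of SNHG3 outside the corner to set beside it. It was -0.18 under median scaling and -0.32 with quantile normalization, both within the spread. In all 11 ways of processing that kept this probe it was below 0. The only probe of RCC1, a nuclear exchange factor for Ran, also lies in the corner, and gave log2 ratios of -0.09 with cordyceps and 0.04 with cordycepin. With cordycepin SNHG3 differed from control by a log2 ratio of -0.01.

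**Figure D2:**
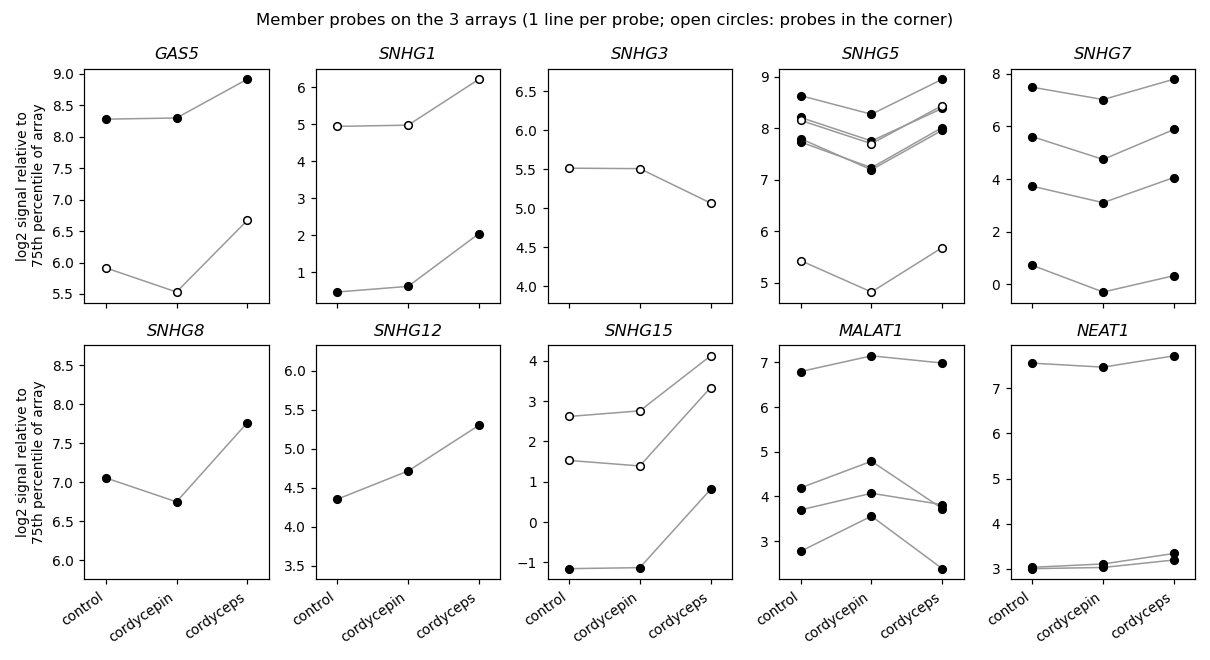
Log2 signal of each member probe relative to the 75th percentile of its array, on the control, cordycepin and cordyceps arrays. Each line joins the values of 1 probe, open circles are probes in the corner, and each panel has its own scale, of at least 3 log2 units. The probes of SNHG5 and SNHG7 are lowest on the cordycepin array, those of SNHG1 and SNHG15 are highest on the cordyceps array, and on this scale the 4 MALAT1 probes are highest on the cordycepin array.

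MALAT1 was higher with cordycepin by all of its probes. The brightest gave 28860.5 in control cells, 31723 with cordycepin and 32939 with cordyceps, and the others gave 4759.8, 6195 and 3452, then 3382, 3772 and 3669, then 1781, 2645 and 1361. The log2 ratios with cordycepin were 0.35, 0.59, 0.37 and 0.78, the first about equal to the spread of a single probe, the others beyond it, and none at 2-fold. They remained above 0 in all 12 ways of processing, with a lowest value of 0.09 under median scaling. With cordyceps the probes were split, since 2 had log2 ratios of 0.19 and 0.12 and the other 2 had -0.46 and -0.39. The same 2 probes had the largest ratios with cordycepin and the lowest with cordyceps. All 4 carry the accession NR_002819, and the files hold no probe sequences, so their places along the transcript were not determined.

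NEAT1 differed little between the arrays. Its brightest probe gave 49138 in control cells, 39850.2 with cordycepin and 55007 with cordyceps, and the others gave 2124, 1928 and 2628, and 2080.5, 1826 and 2377. The log2 ratios with cordycepin were -0.09, 0.07 and 0.03, and those with cordyceps were 0.16, 0.31 and 0.19. All were within the spread of a single probe. The 3 probes carry the accession NR_028272, that of the shorter NEAT1 transcript, whose sequence is shared with the start of the longer one. The probe of MIR612, a microRNA gene inside the span of NEAT1, lies in the corner and gave log2 ratios of -0.19 with cordycepin and -0.08 with cordyceps.

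**Figure D3:**
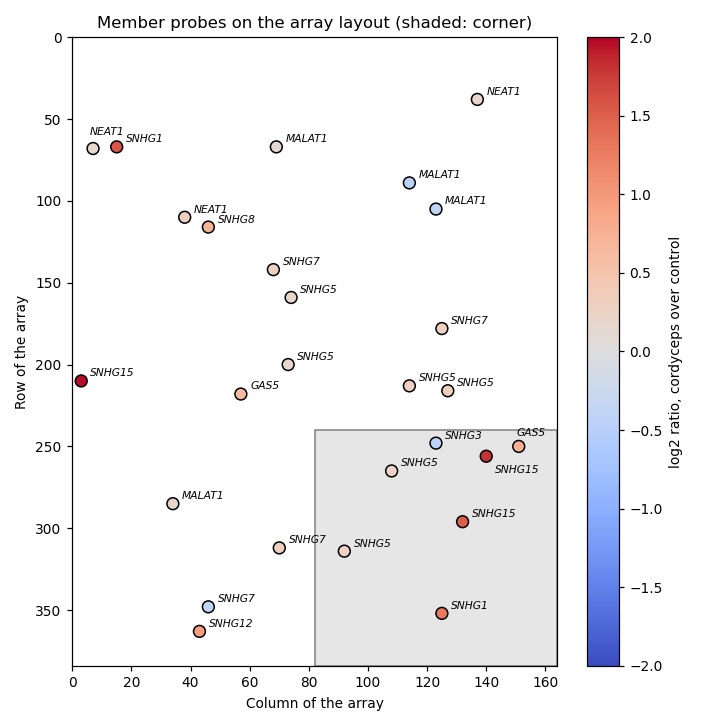
Position of the 27 member probes on the array, by column and row, colored by the log2 ratio of cordyceps over control. The shaded rectangle is the corner with outlying local background. Probes with high ratios lie inside it (SNHG1 and SNHG15) and outside it (SNHG1, SNHG15 and SNHG12).

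The host genes were also compared with and without the corner. Calls of higher signal were far more common in the corner, where 15.9% of all detected probes passed 2-fold upward and 3.12% downward, than outside it, where 3.06% and 3.59% did. Of the member probes, 3 of 7 inside the corner and 2 of 20 outside it were at least 2-fold higher, and 0 were lower in either place. The 3 calls inside it, 1 of SNHG1 and 2 of SNHG15, thus lie where such calls are frequent, and the part of the corner in them was not tested. On the cordyceps array the local background was outlying at none of the 27 member spots. Removal of the corner and rescaling moved every remaining log2 ratio with cordyceps by the same 0.11. SNHG1 then stood at 1.69 and SNHG15 at 2.08 by their probes outside the corner, which are not their brightest. SNHG12, at 1.06, was called through that common move alone, while the probes of SNHG1 and SNHG15 had passed 2-fold before it. After it, 3 of the 20 member probes outside the corner were at least 2-fold higher, compared with 3.88% of all probes there. None was at least 2-fold lower, compared with 2.45%. With cordycepin the same rescaling left 0 higher and 1 lower, compared with 7.42% and 3.66%.

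The snoRNAs themselves gave a further readout. The spans of the 8 host genes hold 32 snoRNA genes, and 21 of these had a probe, 1 each, of which 18 were well above background on all 3 arrays. These probes were chosen by position after the values of the hosts had been seen. Whether these probes read mature snoRNA, the unspliced host or both was not tested. With cordyceps, the 20 snoRNA probes with a ratio had a median log2 ratio of 0.09, from -1.09 to 0.46, with 11 above 0, 0 at least 2-fold higher and 1, SNORD74, at least 2-fold lower. All 202 snoRNA genes with a ratio on these arrays had a median of -0.09, with 88 above 0, 10 called higher and 5 called lower.

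The 8 snoRNA probes within SNHG1 had log2 ratios between -0.09 and 0.43 with cordyceps, all below the 1.27 and 1.58 of the host itself. SNORD26, for example, gave 4130.0 in control cells, 4170 with cordycepin and 4480 with cordyceps. SNORA9, in SNHG15, gave 373, 460 and 346, a log2 ratio of -0.11 with cordyceps, while each probe of the host was at least 2.84-fold higher. In SNHG12, SNORA16A gave 8420, 9440 and 9290, or 0.14 with cordyceps. The other 3 snoRNA probes in SNHG12 lie in the corner and had log2 ratios of -0.21, -0.19 and -0.37, the last a bound because SNORA44 was not well above background on the cordyceps array. In GAS5 the snoRNA probes ran from -1.09 for SNORD74 to 0.46 for SNORD76, on either side of 0. SNORA24, in SNHG8, had 0.35. In the 5 hosts with a snoRNA probe, no snoRNA probe reached the lowest ratio of its host with cordyceps, and the difference between host and snoRNA was not tested.

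With cordycepin most snoRNA probes lay above control, within these hosts as among all snoRNA genes on the arrays. Of the 21 probes within these hosts, 17 did so, with a median log2 ratio of 0.23, from -0.56 to 2.35, 2 called higher and 0 called lower. Among all 226 snoRNA genes with a ratio, 177 lay above control. Their median was 0.34, with 31 called higher and 1 called lower, so the median within these hosts was the lower one. SNORA44 in SNHG12 gave 44.7 in control cells and 103 with cordycepin, a log2 ratio of 1.42. SNORD75 in GAS5 gave 81.7 with cordycepin and was below detection in control cells, a log2 ratio of at least 2.35. SNORD74, also in GAS5, gave 244, 403 and 115 over the 3 arrays.

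**Figure D4:**
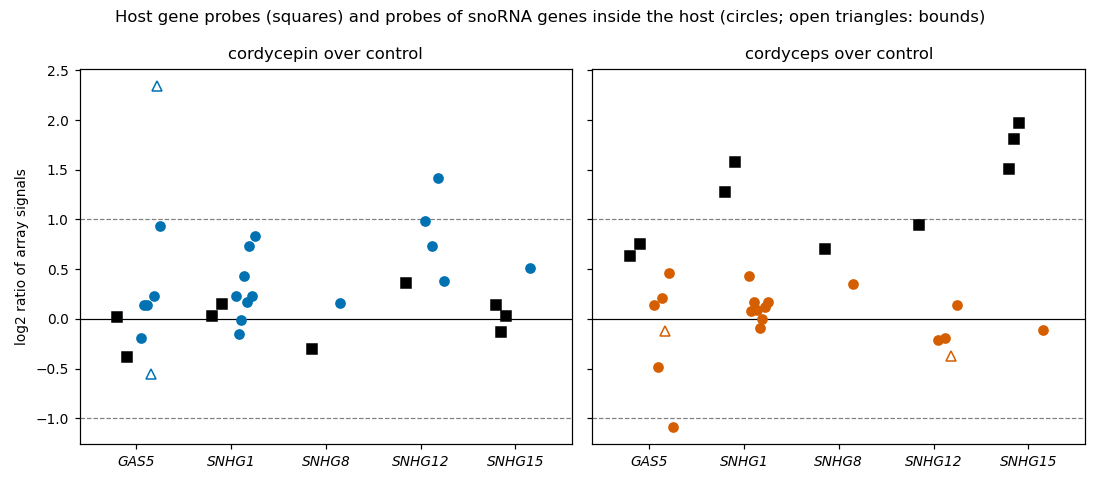
Log2 ratios of host gene probes (black squares) and of probes for snoRNA genes inside the same host (colored circles; open triangles are bounds), for cordycepin on the left and cordyceps on the right. With cordyceps the squares of SNHG1, SNHG12 and SNHG15 lie above all circles of the same host.

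Genes that overlap the span of a member were measured as well, and were likewise chosen after the member values were known. GAS5-AS1, an antisense transcript of GAS5, gave 128 in control cells, 36.4 with cordycepin and 102 with cordyceps by a probe in the corner. Its log2 ratio with cordycepin was -1.60, while that of the brightest GAS5 probe was 0.02. ZBTB37, which also overlaps GAS5 and encodes a zinc finger protein, had log2 ratios of 0.72 with cordycepin and 0.08 with cordyceps. TRNAU1AP, which overlaps SNHG12 and encodes a factor for selenocysteine tRNA, had log2 ratios of -0.73 with cordycepin and 0.0047 with cordyceps. DIPK1B, which overlaps SNHG7, had -0.35 and -0.42.

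Lists of related genes were described by their counts and medians, each gene by its brightest probe, beside the medians of all named genes of -0.05 with cordycepin and -0.12 with cordyceps. By genes, 6.01% were called higher and 3.61% lower with cordycepin, and 4.39% and 3.3% with cordyceps. Counts above or below control depend on where the scaling sets 0, and the share of all genes on either side is not given here. Of 23 other noncoding snoRNA host genes, 16 had a probe and 15 a ratio. None was called in either comparison. With cordyceps their median log2 ratio was -0.15, with 6 above 0 and 9 below. The 6 above 0 were SNHG6, SNHG16, SNHG17, SNHG29, ZFAS1 and EPB41L4A-AS1, with control signals from 8220 to 66200. The 9 below had control signals from 35.2 (SNHG4, a bound) to 8130 (SNHG9), so the median also reflects dim genes. The member hosts ran from 1600 (SNHG15) to 104000 (SNHG5). ZFAS1, host of a snoRNA cluster, was highest, with 51500 in control cells, 46600 with cordycepin and 87200 with cordyceps, a log2 ratio of 0.76. DANCR was lowest at -0.84. With cordycepin the median was 0.07, and the ratios ran from -0.48 for SNHG20 to 0.58 for SNHG22. The difference between these genes and the 8 member hosts was not tested.

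Protein-coding genes that host snoRNAs were close to all genes with cordyceps, with a median log2 ratio of 0.03 over 20 genes and none called. The highest was HSPA9, a mitochondrial chaperone, at 0.72, and the lowest EIF4A1, a helicase of translation initiation, at -0.51. With cordycepin 16 of these 20 genes were below control, with a median of -0.21, from -0.81 for EIF4A1 to 0.26 for GNL3, a nucleolar GTPase, and again none was called. The 8 core proteins of snoRNA particles had medians of -0.03 with cordycepin and -0.0028 with cordyceps. With cordycepin they ran from -0.44 for GAR1 to 0.27 for SNU13, and none was called in either comparison. Among them NOP58, a core protein of box C/D particles, was highest with cordyceps at 0.53 and NHP2, of box H/ACA particles, was lowest at -0.49.

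Factors of nonsense-mediated decay, the pathway that removes many host exons, differed little. Their medians over 10 genes were 0.10 with cordycepin and -0.02 with cordyceps, and none was called. SMG5, which brings decay enzymes to UPF1, was highest in both comparisons, with signals of 692, 842 and 1250 on the control, cordycepin and cordyceps arrays and log2 ratios of 0.50 and 0.85. UPF3A was lowest with cordycepin at -0.35 and UPF1, the central helicase of the pathway, with cordyceps at -0.29.

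Proteins of the bodies that hold NEAT1 and MALAT1 had list medians below 0 in both comparisons. The medians of all named genes were also below 0, at -0.05 with cordycepin and -0.12 with cordyceps. Of 14 paraspeckle proteins, 2 were at least 2-fold lower with cordycepin and 10 were below control, with a median log2 ratio of -0.20. SFPQ, which binds and stabilizes NEAT1, gave 3940 in control cells, 1140 with cordycepin and 3470 with cordyceps, 2.98-fold lower with cordycepin. SFPQ had 1 probe, outside the corner. With cordyceps 11 of the 14 were below control and none was called, and the median was -0.17, from -0.59 for RBM14 to 0.09 for CPSF7. Of 10 nuclear speckle proteins, 6 were below control with cordycepin and 8 with cordyceps, and none was called. Their medians were -0.21 with cordycepin, where SRSF2, a splicing factor, was lowest at -0.98 and SRSF1 highest at 0.47, and -0.31 with cordyceps, where U2AF2 was lowest at -0.60 and RNPS1 highest at 0.11.

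Among 16 other noncoding RNAs, 15 had a probe and a ratio with cordycepin, and 13 of these were above control. Their median log2 ratio was 0.41, and 3 were at least 2-fold higher. RN7SL1, the RNA of the signal recognition particle, gave 87000 in control cells, 176000 with cordycepin and 92100 with cordyceps, 2.35-fold higher with cordycepin. It has near-identical copies in the genome that its probe may also read. H19, an imprinted RNA, gave 203, 856 and 41.1 by a probe in the corner, and 89.9, 308 and 22.6 by a probe outside it, so that it was 4.89-fold and 3.98-fold higher with cordycepin. With cordyceps H19 was 4.94-fold lower by the first probe and at least 2.61-fold lower by the second, which was not well above background there. KCNQ1OT1, an imprinted antisense RNA, had log2 ratios with cordycepin of 1.49 and 0.9975 by its probes, the second just short of the call. With cordyceps the list had a median of -0.12 over 14 genes, and MEG3 was highest at 0.93.

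**Figure D5:**
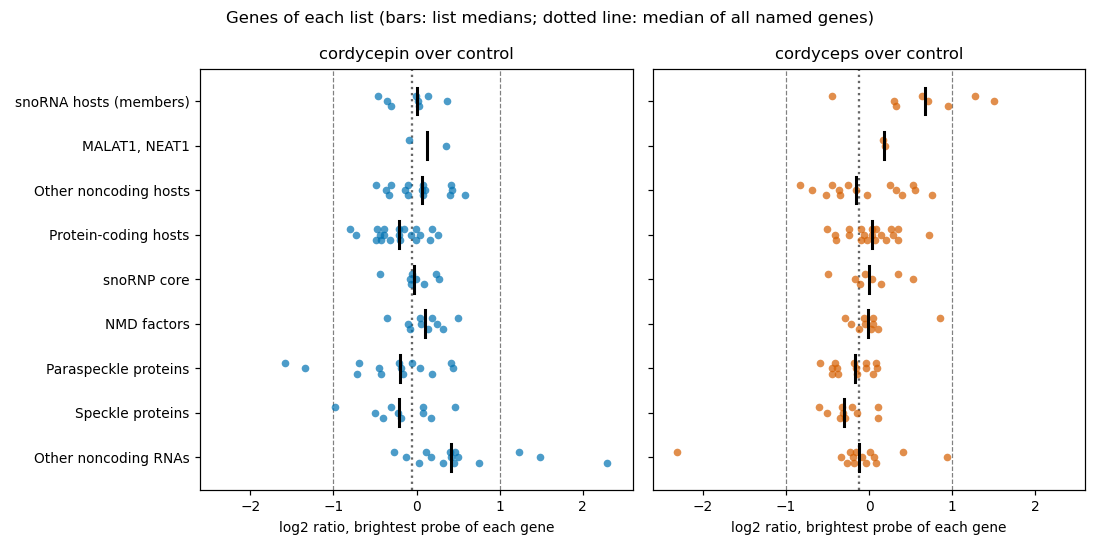
Log2 ratios of the genes of each list, each by its brightest probe, for cordycepin on the left and cordyceps on the right. Short bars are list medians, the dotted line is the median of all named genes and dashed lines mark 2-fold. With cordyceps the bar of the member hosts, at 0.67, lies to the right of those of the other hosts, although the points of these lists overlap.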

How the data were processed

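Total RNA of 3 A549 cultures, 1 per condition, was labeled with Cy3 and hybridized to 1 slide. The published methods also name Cy5 and GeneSpring, but the deposited files hold a single Cy3 channel. The authors deposited spot intensity values from Feature Extraction 11.5.1.1, background-subtracted and not scaled between arrays, and a value table whose 58201 rows lay within 0.1% of the mean processed intensity for at least 99.88% of probes. The array design refers to GRCh37. The file headers pair no gene names with probes, so accessions without versions were matched to RefSeq symbols (31104 of 58201 probes named), and names in a gene name column could not be used.

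Outlier spots were left out, spots of a probe averaged, and log2 intensity reduced by each array's 75th percentile. A probe was detected when well above background. A probe detected on 1 array of a pair was given a bound. The brightest probe stood for a gene. The text names all members, and from each other list the genes called at 2-fold, or else the highest and lowest. The values of 1 called gene of the paraspeckle list are not reported here. The members and lists were chosen with earlier results of these data known, and snoRNA and overlapping genes within the members' spans were chosen after the member values were seen. Alternatives were other scalings, detection rules, background correction (normexp, limma 3.58.1, offset 50.0), thresholds, the value table and the corner left out. Python 3.11.15, numpy 2.4.6, pandas 2.3.3, matplotlib 3.10.9 and R 4.3.3 were used. The scripts were tested on simulated data. With 1 array per condition, the number of arrays limits the precision.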

Additional observations from a re-analysis of the deposited data

How the results depend on the processing

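No paired analysis was possible because each condition had 1 array. Leaving out a replicate was likewise not possible. Among member probes with cordycepin, the count at least 2-fold lower, 1, was 0 with the 75th percentile over detected probes, with quantile normalization and with normexp, and 2 with median scaling and with no scaling. At a threshold of 1.5-fold it was 5, with 2 higher where none was higher at 2-fold, and at 3-fold it was 0. With cordyceps the count at least 2-fold higher, 5, was 7 with median scaling, and 6 with the 75th percentile over detected probes and with quantile normalization. It was 3 with the corner left out, 9 at 1.5-fold and 2 at 3-fold. Shares of all probes at 1.5-fold and 3-fold are not given here, so those counts are not read as a result about the members. The causes of these changes were not tested, beyond the probes removed with the corner. The median over the 10 members, 0.48 with cordyceps, lay between 0.48 and 0.75 under all alternatives run. With cordycepin it was 0.01 and lay between -0.26 and 0.10, so its sign depended on the scaling. With the corner left out (0.75 with cordyceps, 0.02 with cordycepin) SNHG3 was not counted, since its only probe lies there. Of the log2 ratios of single genes, 236 moved by less than the spread between probes and 2 by more, those of SNHG1 (1.69) and SNHG15 (2.08) with cordyceps when the corner was left out, where another probe stood for the gene. With cordycepin, the sign for GAS5, SNHG1, SNHG3, SNHG15 and NEAT1 depended on the setting. All member probes were well above background, so signal was not the limit for them, and the detection rules could not move their ratios.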
